A study of Homo sapiens with 6 samples.

Results

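Developmental transcription factors of 21 families were described in C4-2 cells, a prostate cancer cell line established from LNCaP, after EZH2 had been inhibited, targeted or depleted. The members were chosen by gene name alone: a family symbol (SOX, PAX, LHX, TBX, DLX, IRX, ZIC, HAND, EMX, OTX, MSX, BARX, VAX, NEUROD, NEUROG, POU3F, POU4F, FOXC, FOXD, FOXL, or the stem shared by SIX2 and SIX4) followed by a number and at most 1 letter. This gave 106 of the 28503 genes in the deposited table. At passages 10 to 15 the cells were given vehicle, GSK126, astemizole, lentivirus with a scramble shRNA, or lentivirus with 1 of 2 hairpins against EZH2. Vehicle is the control of both drugs and the scramble shRNA that of the knockdown; all cells were the same line in serum-containing medium, and doses and durations were not given in the sources used here. Polyadenylated RNA was sequenced, and the values are FPKM, counts of fragments per length of transcript and per size of the library. The labels list 6 libraries, 1 for each hairpin and 1 for each other condition, while the table has 5 columns. Its knockdown column names no hairpin, and whether it holds 1 of the hairpin libraries or a value made from both was not given in the sources used here. With 1 value per condition no difference below has a replicate check, a test or an error. RNA was taken from whole cultures, in which fewer cells expressing a gene and less RNA per cell cannot be told apart.

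Polycomb repressive complex 2 (PRC2) methylates histone H3 through its catalytic subunit EZH2, with EED and SUZ12 as core partners, and the mark accompanies gene silencing. Genes of these families, which set cell identity in the embryo, are typical PRC2 targets in tissues where they are not used, and many start in stretches rich in CpG dinucleotides, where the complex is known to be recruited. The drug GSK126 blocks methylation by EZH2. Astemizole, an antihistamine, has been reported to disturb the pairing of EZH2 with EED. Neither the histone mark nor PRC2 binding was measured in these libraries, so which members PRC2 occupied in C4-2 cells is not known from these data.

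The bases before the start site of 4 members are shown because they set an expressed gene beside genes that were listed at 0 in every column. IRX4 was the third most abundant member by its mean FPKM, at up to 45.1. IRX1, of the same family and on the same chromosome, and NEUROG1, which starts neuronal differentiation, were at 0 throughout, as was PAX4, a factor of the endocrine pancreas. Each line is the 250 bases before the annotated start, read 5′ to 3′ from the gene's own strand, from RefSeq on GRCh38.p14, with every CpG in capitals. The windows are chr5:1886946-1887195 (minus strand) for IRX4, chr5:3595582-3595831 (plus strand) for IRX1, chr5:135535965-135536214 (minus strand) for NEUROG1 and chr7:127618143-127618392 (minus strand) for PAX4.
IRX4: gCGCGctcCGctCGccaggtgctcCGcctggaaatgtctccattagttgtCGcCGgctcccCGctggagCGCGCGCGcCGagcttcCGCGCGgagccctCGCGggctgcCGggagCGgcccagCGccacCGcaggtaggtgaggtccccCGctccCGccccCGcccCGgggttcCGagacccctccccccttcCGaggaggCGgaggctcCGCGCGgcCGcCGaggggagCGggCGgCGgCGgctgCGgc
IRX1: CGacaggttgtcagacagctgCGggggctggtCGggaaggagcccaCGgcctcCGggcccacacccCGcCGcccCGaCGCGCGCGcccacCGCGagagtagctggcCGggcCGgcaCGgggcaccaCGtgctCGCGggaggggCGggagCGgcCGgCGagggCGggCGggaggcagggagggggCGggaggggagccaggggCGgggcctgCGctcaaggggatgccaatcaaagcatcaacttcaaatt
NEUROG1: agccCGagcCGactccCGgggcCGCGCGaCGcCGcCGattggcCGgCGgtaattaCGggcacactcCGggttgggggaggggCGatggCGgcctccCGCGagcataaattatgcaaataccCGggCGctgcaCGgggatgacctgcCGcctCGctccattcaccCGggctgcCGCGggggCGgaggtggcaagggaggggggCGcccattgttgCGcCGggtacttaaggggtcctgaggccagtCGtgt
PAX4: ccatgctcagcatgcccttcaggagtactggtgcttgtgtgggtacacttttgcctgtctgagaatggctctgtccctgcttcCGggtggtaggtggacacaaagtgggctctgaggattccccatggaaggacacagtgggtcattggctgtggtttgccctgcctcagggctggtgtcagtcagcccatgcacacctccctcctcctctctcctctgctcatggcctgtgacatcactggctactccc
IRX4 has 39 CpGs in this window, IRX1 29, NEUROG1 30 and PAX4 1. The start of IRX4 and the starts of the silent IRX1 and NEUROG1 thus all carry many CpGs, while that of PAX4 does not.

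Few members were expressed. With vehicle, 30 of 106 members (28.3%) stood at 1 FPKM or more and 38 (35.8%) were listed at 0. Over all genes 43.0% reached 1 FPKM and 36.9% were at 0, so against all genes the members were detected less often but were not more often at exactly 0. In the range between, above 0 and below 1 FPKM with vehicle, were 38 of the 106 members and 5749 of the 28503 genes. All genes include non-coding ones. Of 18025 protein-coding genes, 11023 reached 1 FPKM in at least 1 column and 2288 were at 0 in all 5. For the 106 members these counts were 32 and 23, so against protein-coding genes they were detected less often and more often at 0 throughout. Among members at 1 FPKM or more the median level was 4.41 FPKM with vehicle, against 11.9 FPKM over all genes at that level.

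The share detected was nearly the same in every column. Scramble shRNA had 28 members at 1 FPKM or more (26.4%), GSK126 29 (27.4%), astemizole 30 (28.3%) and the knockdown 26 (24.5%). Members listed at 0 numbered 35 with scramble shRNA (33.0%), 36 with each drug (34.0%) and 34 with knockdown (32.1%). Over all genes 37.9% were at 0 with scramble shRNA, 35.3% with GSK126, 37.2% with astemizole and 34.0% with knockdown. In the knockdown column 23 members were above 0 and under 0.1 FPKM, against 20 with scramble shRNA, and over all genes the counts of that class were 3613 against 2428. The part of depth, which the table does not give, in this difference was not tested. A list of 89 other developmental factors, such as the GATA, NKX and PITX genes, had between 20.2% and 25.8% detected in the 5 columns.

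**Figure D1:**
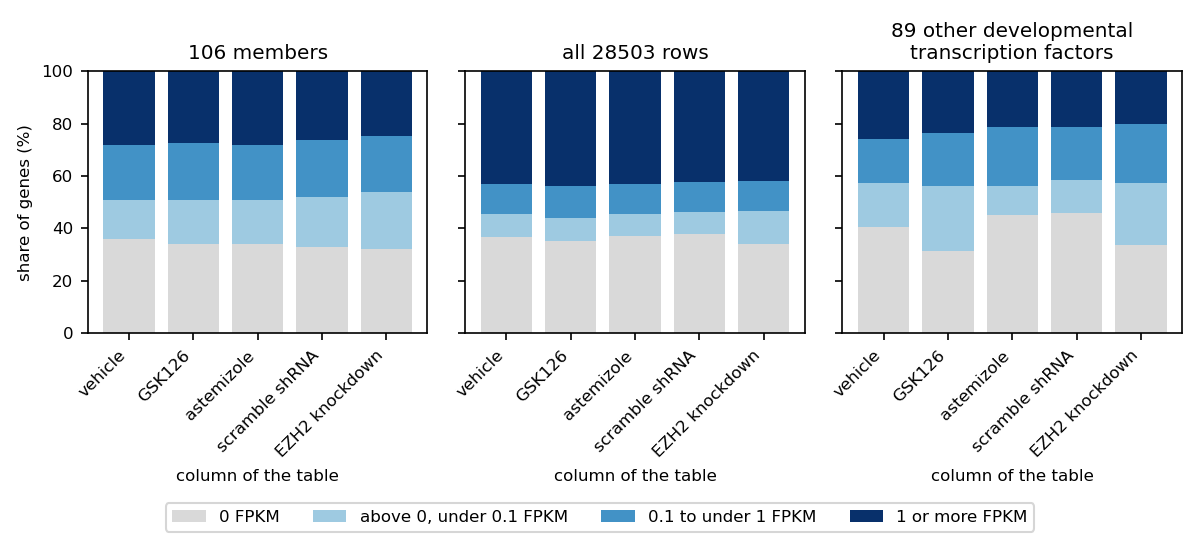
Share of genes (y axis, percent) in 4 classes of FPKM for each column of the table (x axis), for the 106 members, all 28503 genes and 89 other developmental transcription factors. The dark part, 1 FPKM or more, covers 24.5% to 28.3% of the members and 41.8% to 43.7% of all genes.

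In all 5 columns together, 24 members (22.6%) reached 1 FPKM in each, 8 in some, and 74 (69.8%) in none, beside 39.9% of all genes in each and 54.5% in none. Of the last, 23 members were at exactly 0 in all 5 columns, 21.7% of the 106, a smaller share than the 27.8% of all genes. All genes include non-coding ones, while every member has a protein-coding transcript. Of 18025 protein-coding genes 2288 were at 0 in all 5 columns, a smaller share than that of the members. Under 0.1 FPKM in all 5 columns were 47.2% of members and 40.0% of all genes. The 23 members at 0 were DLX4, FOXC2, HAND1, IRX1, LHX5, LHX8, NEUROD4, NEUROD6, NEUROG1, NEUROG3, OTX2, PAX4, POU3F3, POU3F4, SOX1, SOX14, SOX17, SOX3, SOX30, TBX18, TBX20, TBX22 and ZIC4. They include factors of neural progenitors (SOX1, SOX3), endoderm (SOX17) and heart (HAND1, TBX20). A value of 0 can also be a failed estimate, and read totals are not in the table, so no upper limit can be given for them.

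By family, MSX was the only one with every member, here both, at 1 FPKM or more in all 5 columns. IRX had 4 of 6 members at that level in all columns, against 5 of 19 SOX, 2 of 13 TBX, 2 of 9 PAX, 2 of 8 LHX, 1 of 6 DLX, 2 of 5 ZIC and 1 of 4 FOXD genes. Both BARX genes and 1 of 2 OTX genes reached 1 FPKM in some columns but not in all. No member of EMX, FOXC, FOXL, HAND, NEUROD, NEUROG, POU3F, POU4F or VAX reached 1 FPKM in any column. Of these the NEUROG genes, neurogenic basic helix-loop-helix factors, had the lowest maximum: none of the 3 exceeded 0.0203 FPKM, followed by HAND at 0.0292, FOXL at 0.0631 and the 4 NEUROD genes at 0.0762. The POU3F genes, which include brain factors associated with neuroendocrine tumours, stayed at or under 0.140 FPKM. Of 6 neuroendocrine markers CHGB and INSM1 were at 0 in every column, and SYP alone reached 1 FPKM, at 4.63 in the knockdown column and 0.489 to 0.884 elsewhere.

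The 10 highest of the members that stayed below 1 FPKM were VAX1, TBX19, TBX6, FOXD3, DLX3, TBX5, FOXD2, VAX2, POU4F1 and LHX9, with maxima between 0.538 and 0.912 FPKM. Their maxima fell in different columns: 3 with vehicle, 3 with GSK126, 3 with astemizole and 1, TBX19 at 0.764, in the knockdown column. TBX19, a factor of pituitary cells, was at 0.329 FPKM with scramble shRNA and 0.244 with vehicle. DLX3, a factor of epidermis and placenta, stood at 0.650 FPKM with astemizole and between 0.134 and 0.207 in the other 4 columns.

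Members that lie next to each other in the genome were not always expressed together. RefSeq's gene order has 14 pairs of members with no other protein-coding gene between them. Both genes reached 1 FPKM in 4 pairs, which include ZIC5 with ZIC2, IRX3 with IRX5 and DLX1 with DLX2, 1 gene in 5 pairs and neither in 5. The split pairs include TBX5 with TBX3, IRX5 with IRX6, SIX3 with SIX2 and IRX2 with IRX1. The most abundant member, TBX3, thus lies beside TBX5, which did not exceed 0.638 FPKM.

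Members with CpG-rich starts were common in every expression class. Because the promoter table held 75 of the 106 members, a comparison of the sets on it is void, and CpGs were counted instead in the first 250 bases of the longest protein-coding GENCODE transcript, found for all 106. A start was called CpG-rich at a GC content of at least 50% and an observed-to-expected CpG ratio of at least 0.6, a rule chosen after the expression values were seen. Of the 23 members at 0 in all columns, 15 (65.2%) were CpG-rich, with a median of 17 CpGs. Among all 2288 protein-coding genes at 0 in all columns, 488 (21.3%) were, with a median of 5. For members above 0 and below 1 FPKM throughout the share was 37 of 51 (72.5%), against 39.3% of 4714 protein-coding genes in that class. Members that reached 1 FPKM in any column were CpG-rich in 27 of 32 cases (84.4%), close to the 72.7% of all 11023 expressed protein-coding genes. Of the members at 0, PAX4 (1 CpG), NEUROD6 (3) and TBX22, OTX2, POU3F4 and ZIC4 (6 each) had the fewest. This is a description with no test: family members share ancestry and sequence, and the first 250 bases can hold coding sequence.

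**Figure D2:**
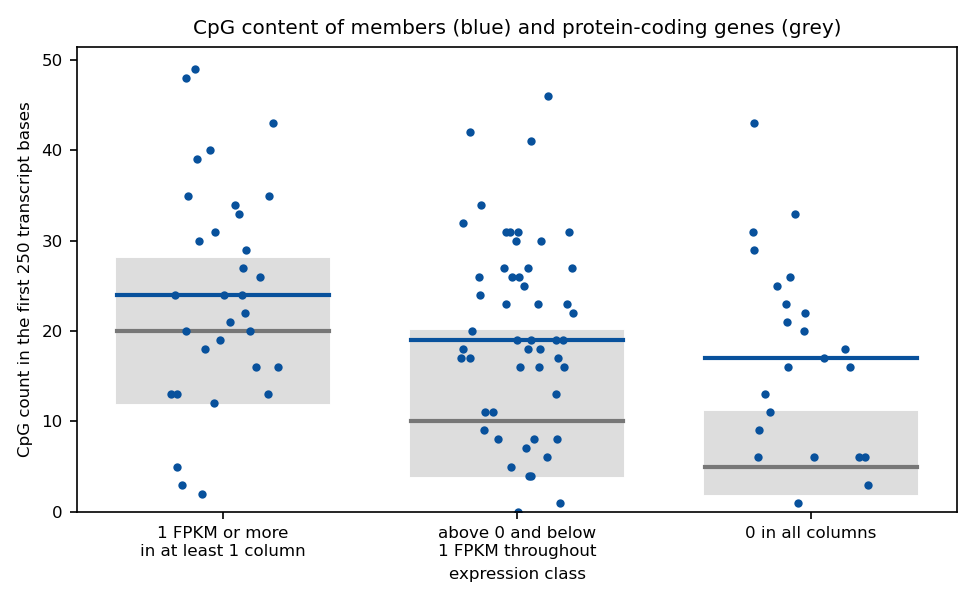
CpG count in the first 250 transcript bases (y axis) by expression class (x axis); points are members, the blue line is their median, and the grey box and line are the quartiles and median of all protein-coding genes of that class. The medians of the members are 24, 19 and 17 from left to right, and those of all protein-coding genes 20, 10 and 5.

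The targeted gene and the cell type were checked in the same columns. EZH2 stood at 26.5 FPKM with vehicle, 24.6 with scramble shRNA and 3.35 with knockdown, and at 17.5 with GSK126 and 9.48 with astemizole. The core partners EED and SUZ12 were lower in all 3 comparisons. With GSK126, astemizole and knockdown in turn, the log2 ratios were -0.46, -0.87 and -0.67 for EED and -0.23, -0.62 and -1.04 for SUZ12. EZH1 went the other way, at 0.19, 0.21 and 0.89. Of 11 PRC2 genes the largest positive log2 ratio belonged to the accessory subunit JARID2, at 1.10 with knockdown. All 11 prostate luminal markers were at 1 FPKM or more in every column. The summed level of 8 liver markers was 176 FPKM with GSK126 and 20.4 with vehicle, against 2.04 to 5.61 in the other 3 columns, and that of 4 blood markers was 8.07 with GSK126 and at most 1.14 elsewhere. The blood sum with GSK126 was mostly LYZ, at 7.57 FPKM, while HBB, CD74 and PTPRC stood at 0.418, 0.0715 and 0.0172. The part of the liver and blood list transcripts in the differences with GSK126 was not tested.

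No member that was listed at 0 in its control column reached 1 FPKM. With GSK126, 6 of 38 such members were above 0 and the highest was IRX6 at 0.0541 FPKM. With astemizole 9 of 38 were above 0, again led by IRX6, at 0.0599. With knockdown 8 of 35 were above 0, led by the sensory neuron factor POU4F3 at 0.0974. Over all genes 1205 of 10509 at 0 in the control were above 0 with GSK126, 1035 of 10509 with astemizole and 1710 of 10805 with knockdown. Between the controls 8 of 38 members at 0 with vehicle were above 0 with scramble shRNA, against 800 of 10509 genes. Members thus left 0 more often than all genes in each comparison, also between the controls. Over all genes 0.105%, 0.133% and 0.111% of those at 0 in the control reached 1 FPKM with GSK126, astemizole and knockdown, so a count of 0 among 35 to 38 members does not set them apart. None of the 38 members at 0 with vehicle reached 1 FPKM with scramble shRNA either, against 0.0666% of all genes. IRX6 stood at 0.0991 FPKM with scramble shRNA and at 0 with vehicle, so the controls differed for it by more than either drug did from vehicle.

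A few members crossed 1 FPKM from below. TBX10 did so with GSK126 and with astemizole (1 of 76 members each, 1.32%, against 2.62% and 2.59% of all genes below 1 FPKM with vehicle). It stood at 0.883 FPKM with vehicle and 0.419 with scramble shRNA, against 1.42 with GSK126, 1.25 with astemizole and 0.336 with knockdown. With knockdown BARX2 and OTX1 crossed upward, 2 of 78 members (2.56%, against 2.08% of all genes). BARX2 stood at 0.536 FPKM with scramble shRNA and 1.45 with knockdown, but at 1.30 with vehicle. OTX1, a factor of the forebrain, stood at 0.827 with scramble shRNA, 2.00 with knockdown, 1.31 with vehicle, 1.94 with GSK126 and 1.59 with astemizole. For both genes the scramble column was the lowest of the 5.

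More members crossed downward with knockdown. BARX1, DLX2, SIX2 and SOX11 did so, 4 of 28 members at 1 FPKM or more with scramble shRNA (14.3%, against 3.83% of all genes). The share was not particular to the members: of the other developmental factors 3 of 19 (15.8%) crossed downward with knockdown. With astemizole, and with scramble shRNA against vehicle, 4 of 23 of them (17.4%) did. Detected members also lay nearer the limit, with a median of 4.23 FPKM with scramble shRNA against 11.7 over all genes. The part of this in the downward crossings was not tested. BARX1, a factor of stomach mesenchyme and tooth, went from 1.40 to 0.275 FPKM, 0.20 times the scramble level, and stood at 0.763 to 0.929 in the other 3 columns. DLX2 went from 1.13 to 0.783 FPKM and SOX11 from 1.12 to 0.596, so both had been close to the limit. With GSK126 FOXD1 and SIX2 crossed downward (2 of 30, 6.67%, against 1.85%), and with astemizole BARX2 (1 of 30, 3.33%, against 3.34%). Between the controls, scramble shRNA had BARX2, FOXD1 and OTX1 below 1 FPKM that were above it with vehicle, 3 of 30 members or 10.0%, against 3.30% of all genes, and BARX1 crossed upward (1 of 76, against 1.12%).

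For ratios, the log2 of FPKM + 1 was compared between each treated column and its control. Adding 1 FPKM shrinks the ratios of low genes. Of the 106 members 32 entered, those that reached 1 FPKM in any column, together with 12981 genes in all; since 8 of the 32 entered through some columns and not others, their counts are a description. With GSK126 no member was at least 2-fold higher, against 1.06% of all genes, and 1, SIX2, was at least 2-fold lower, against 0.971%. Astemizole had no member at least 2-fold higher, against 3.53%, and 2 lower, DLX1 among them (6.25%, against 5.53%). With knockdown 1 member, SOX9, was at least 2-fold higher (3.12%, against 2.00%) and 2, DLX1 and LHX2, were lower (6.25%, against 5.11%). Scramble shRNA against vehicle had no member past 2-fold, against 0.185% of all genes higher and 0.878% lower. With 32 members, 1 gene is 3.12%, so on this scale none of these counts lies far from the share over all genes.

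**Figure D3:**
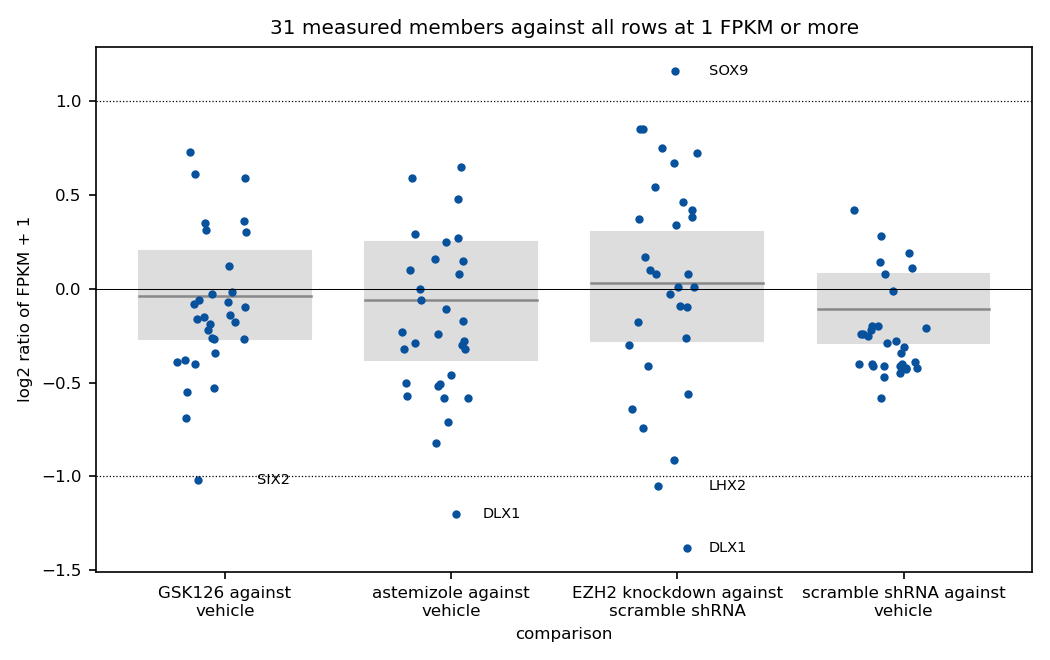
Log2 ratio of FPKM + 1 (y axis) of 31 of the 32 measured members (points) in 3 comparisons and between the controls (x axis); grey boxes and lines are the quartiles and median of all 12981 genes, and dotted lines mark 2-fold. SOX9 with knockdown is the only point above the upper line, and SIX2, DLX1 and LHX2 lie under the lower one.

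The median log2 ratio of the 32 members was -0.14 with GSK126, -0.26 with astemizole and 0.04 with knockdown, beside -0.04, -0.06 and 0.03 over all genes. Scramble shRNA itself had a member median of -0.30 against vehicle, with 26 of 32 members lower. Over all genes the median was -0.11, with 8452 of 12981 lower. On this scale the control columns thus differed by more in the members' median than any treated column did from its own control. After each column was rescaled to the same total (TPM) this did not hold: the median was -0.10 between the controls and -0.20 with astemizole. Without rescaling, and with the scramble column as the control, the medians were 0.04 for GSK126 and -0.02 for astemizole. With vehicle as the control the knockdown median was -0.17. The 89 other developmental factors had 23 measured genes, with medians of -0.14, -0.33 and -0.08, and HLX as the only gene past 2-fold, lower with astemizole and higher with knockdown. HLX was also at least 2-fold lower with scramble shRNA than with vehicle.

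Among the homeodomain genes DLX1, which directs forebrain interneuron development, showed the lowest ratio with knockdown on the FPKM + 1 scale. Without a pseudocount BARX1 was lower, at 0.20 times its control against 0.27 for DLX1. DLX1 stood at 6.59 FPKM with vehicle and 5.54 with scramble shRNA, against 4.84 with GSK126, 2.31 with astemizole and 1.52 with knockdown. All 3 perturbed columns were below both controls. The log2 ratio was -0.38 with GSK126, -1.20 with astemizole and -1.38 with knockdown, and with the control columns exchanged it was -0.16, -0.98 and -1.59. Its neighbour DLX2 stood at 1.88, 1.13, 1.54, 1.02 and 0.783 FPKM with vehicle, scramble shRNA, GSK126, astemizole and knockdown in turn, the order of columns used below, so knockdown and astemizole were the lowest here too, followed by scramble shRNA.

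SIX4, of a family that acts with EYA cofactors, had 8.47, 10.5, 10.6, 6.73 and 6.36 FPKM, so that astemizole and knockdown were the lowest columns. SIX2, which keeps kidney progenitors undifferentiated, had 2.25 FPKM with vehicle and 1.38 with scramble shRNA, against 0.608 with GSK126, 1.17 with astemizole and 0.423 with knockdown. Its log2 ratio with GSK126 was -1.02, and -0.57 against the scramble column, while with knockdown it was -0.74, and -1.19 against vehicle. SIX5 differed little, at 3.06 to 3.77 FPKM.

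The LIM homeodomain gene LHX2, known from forebrain, eye and hair follicle stem cells, was lower in all 3 perturbed columns than in both controls. It stood at 3.29 FPKM with vehicle and 3.61 with scramble shRNA, against 1.96 with GSK126, 1.87 with astemizole and 1.23 with knockdown. The log2 ratio with knockdown was -1.05, and -0.94 with vehicle as the control. LHX6, a factor of cortical interneurons, showed smaller differences of the same sign, at 2.10, 2.27, 1.45, 1.19 and 1.89 FPKM.

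The 4 expressed Iroquois genes kept their order in every column. IRX4, known from the heart ventricle, had 45.1 FPKM with vehicle and 34.2 with scramble shRNA, against 30.4 with GSK126, 25.1 with astemizole and 34.4 with knockdown, so that vehicle was the highest and astemizole the lowest. Its log2 ratio was -0.55 with GSK126 and -0.82 with astemizole, but -0.16 and -0.43 against the scramble column. IRX3 lay between 9.82 and 14.8 FPKM, IRX5 between 3.59 and 4.80 and IRX2 between 1.82 and 2.74, each lowest with scramble shRNA. IRX6 did not exceed 0.0991 FPKM.

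MSX1 and MSX2, homeobox genes induced by bone morphogenetic proteins, lay between 6.34 and 8.14 FPKM and between 2.98 and 6.90 FPKM. MSX2 was highest with astemizole, at 6.90 FPKM against 4.24 with vehicle (log2 ratio 0.59). The next value was 4.34 with knockdown, against 2.98 with scramble shRNA.

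Of the paired-box genes PAX1, a factor of the embryonic spine and pharyngeal pouches, was above both controls in all 3 perturbed columns. It had 4.99 FPKM with vehicle and 3.83 with scramble shRNA, against 8.16 with GSK126, 6.31 with astemizole and 7.68 with knockdown. Log2 ratios were 0.61, 0.29 and 0.85, and no perturbed column reached 2-fold on this scale. Its close relative PAX9 had 4.92, 4.12, 4.09, 3.13 and 4.16 FPKM and was lowest with astemizole. The other 7 PAX genes did not exceed 0.136 FPKM.

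SOX9 is an HMG-box factor of cartilage that also acts in prostate budding. On the FPKM + 1 scale it was the only measured member at least 2-fold higher than its control in the 3 comparisons. With a pseudocount of 0.1 FPKM, BARX2, FOXD4 and OTX1 passed 2-fold with knockdown too, while 5 members were at least 2-fold lower. Without a pseudocount PAX1 was also at 2.01 times its control there. SOX9 stood at 3.12 FPKM with vehicle and 2.11 with scramble shRNA, against 5.82 with GSK126, 5.47 with astemizole and 5.97 with knockdown. The 3 perturbed columns lay close together and above both controls. The log2 ratio was 0.73 with GSK126, 0.65 with astemizole and 1.16 with knockdown, and with the control columns exchanged it was 1.13, 1.06 and 0.76. Which of the 3 passed 2-fold therefore depended on the control column.

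Of the SOXC genes, which act in neural and skeletal progenitors, SOX4 had 33.5 FPKM with vehicle and 24.8 with scramble shRNA, against 51.0 with GSK126, 32.1 with astemizole and 45.5 with knockdown. It was thus high with GSK126 and knockdown but not with astemizole, with log2 ratios of 0.59, 0.85 and -0.06. SOX12 lay between 17.0 and 22.8 FPKM, with vehicle as the highest column. SOX11 lay between 0.596 and 1.505 FPKM. SOX8, of the same subgroup as SOX9, had 3.80, 4.47, 4.20, 4.81 and 6.55 FPKM, with the highest level in the knockdown column. SOX13 lay between 3.34 and 4.36 FPKM. The stem cell factor SOX2 did not exceed 0.0894 FPKM.

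TBX3, a T-box repressor of limb and mammary gland development, was the most abundant member in every column. Its levels were 61.6 FPKM with vehicle and 67.9 with scramble shRNA, against 51.3 with GSK126, 52.3 with astemizole and 71.7 with knockdown. No log2 ratio against its own control exceeded 0.26 in size, and scramble shRNA differed from vehicle by 0.14. Against the scramble column the ratio of TBX3 was -0.40 with GSK126 and -0.37 with astemizole. TBX1, a factor of the pharyngeal arches, had 18.1, 14.7, 14.9, 14.8 and 21.9 FPKM and was highest with knockdown, with a log2 ratio of 0.54.

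Of the zinc finger genes, ZIC2, which acts in neural tube and forebrain, had 12.0 FPKM with vehicle and 8.80 with scramble shRNA, against 11.1 with GSK126, 7.75 with astemizole and 8.15 with knockdown. The adjacent ZIC5 had 5.36, 4.54, 5.03, 3.62 and 5.22 FPKM. Both were lowest with astemizole, with log2 ratios of -0.57 and -0.46.

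Among forkhead genes FOXD1, a factor of kidney stroma, had 1.501 FPKM with vehicle and 0.803 with scramble shRNA, against 0.555 with GSK126, 2.50 with astemizole and 0.223 with knockdown. It was high with astemizole and low with GSK126 and knockdown, at 1.66, 0.37 and 0.28 times its control without a pseudocount. FOXD4 had 2.38, 1.52, 1.58, 1.07 and 3.22 FPKM, but it shares sequence with near-identical copies (FOXD4L1 and others in the table), so how reads were divided among them is uncertain. FOXC1 did not exceed 0.400 FPKM.

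**Figure D4:**
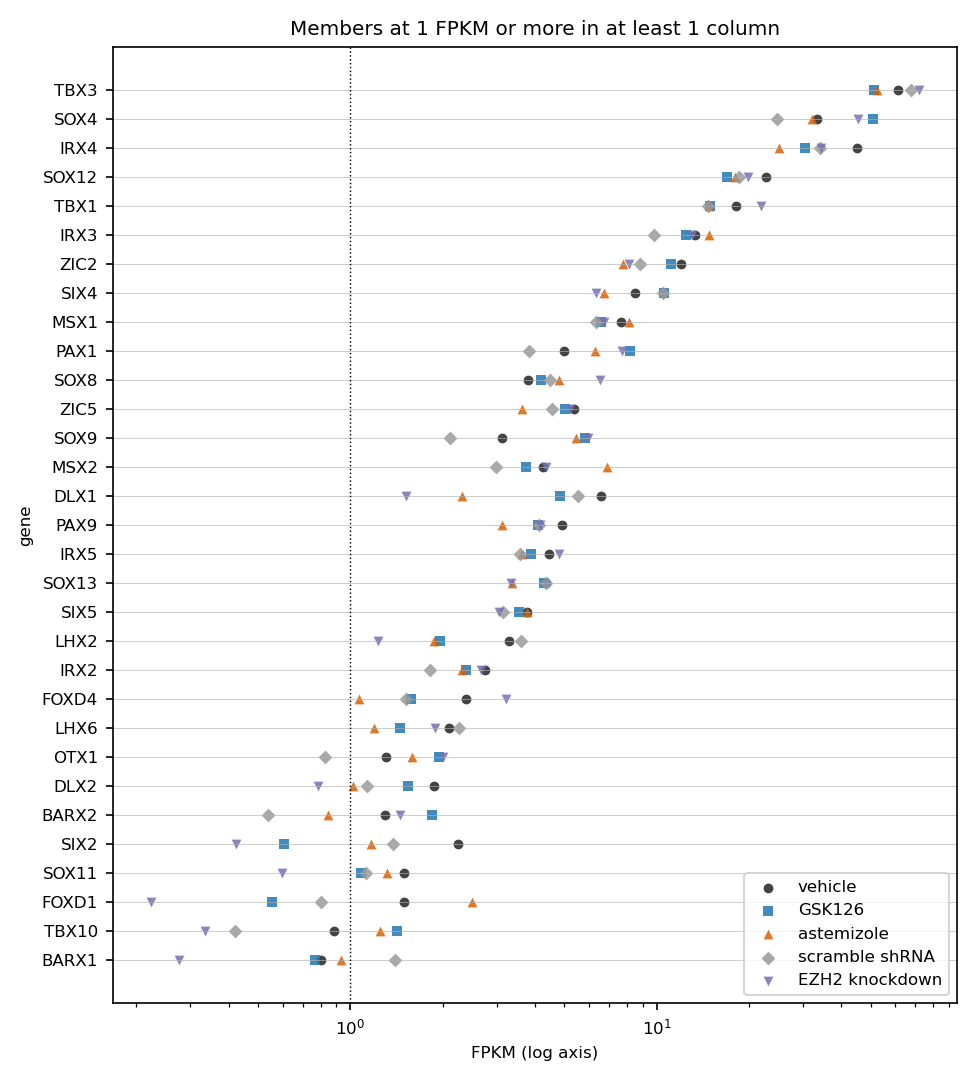
FPKM on a log axis (x) of 31 of the 32 members that reached 1 FPKM in any column (y), 1 symbol per column of the table; the dotted line marks 1 FPKM. TBX3 is at the top with 51.3 to 71.7 FPKM, and the knockdown symbols of DLX1 (1.52) and LHX2 (1.23) lie to the left of the other symbols of their rows.

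Counting whole levels rather than ratios, 3 of the 32 members (9.38%: OTX1, PAX1 and SOX9) had all 3 perturbed columns above both controls, against 15.1% of all genes. In 5 (15.6%: DLX1, LHX2, LHX6, SIX2 and SOX13) all 3 lay below both controls, against 16.6%. Neither share exceeded that of all genes, and all 5 genes with the highest levels (TBX3, SOX4, IRX4, SOX12 and TBX1) had perturbed and control columns that overlapped.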

How the data were processed

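Polyadenylated RNA of C4-2 cells was measured in 6 libraries, of which 2 are of EZH2 hairpins, and the deposited table has 5 columns with 1 for knockdown. The values are FPKM, deposited by the authors and named so per the labels. TopHat2, Cuffdiff and the build hg19 are named in the submitters' processing notes. Versions, annotation, filters, use of strand and scaling options were not given in the sources used here. All 28503 rows were used, including 27 names turned into dates.

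The members and lists were chosen with earlier results of these data known. Ratios were log2 of FPKM + 1 in each treated column over its control, over genes that reached 1 FPKM in any column, and 2-fold or more was counted. No test was possible with 1 value per condition, and depth is unknown: FPKM keeps no totals. Among low values (above 0 and under 0.5 FPKM), the most frequent ratio to vehicle was 0.949 (GSK126), 1.05 (astemizole) and 0.857 (scramble shRNA). These ratios may reflect what 1 read was worth in each column, which was not tested. The knockdown column had no such clear step (37 genes in its highest window, median 9). Every member that reached 1 FPKM was to be named, with the 10 highest of the rest; 1 of them is not reported here, and IRX6, SOX2 and other members below that were named after their values were seen. Promoters came from RefSeq and transcripts from GENCODE, both of a later build than hg19. The ratio step was tested on made-up values with known folds. Python 3.11.15, pandas 2.3.3 and matplotlib 3.10.9 were used. The alternatives tried were another pseudocount, filter, scaling, control column, fold and detection limit.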

Additional observations from a re-analysis of the deposited data

How the results depend on the processing

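The members at least 2-fold higher and lower depended on the low-value scale and on the control. With a pseudocount of 0.1 FPKM, GSK126 had 0 higher and 2 lower (main 0 and 1), and astemizole 0 and 3 (main 0 and 2). Knockdown had 4 and 5 of 32 (main 1 and 2), and medians were -0.18, -0.29 and 0.05 (main -0.14, -0.26 and 0.04). Over all genes 2.87% were then higher and 1.85% lower with GSK126, 5.79% and 7.94% with astemizole, and 3.85% and 7.77% with knockdown. Both member counts with knockdown were thus above the share over all genes. With that pseudocount and no filter, over 106 members, the counts were 3 and 3, 3 and 5, and 6 and 7, and each median 0.00. The shares over all genes were then 3.45% higher and 1.83% lower with GSK126, 4.72% and 5.42% with astemizole, and 3.13% and 4.87% with knockdown. With the control columns exchanged the counts were 2 and 0, 1 and 1, and 0 and 3, with medians of 0.04, -0.02 and -0.17. The shares over all genes were then 1.54% higher and 0.408% lower, 4.58% and 3.92%, and 1.97% and 7.25%. At 1.5-fold the member counts were 3 and 2, 2 and 4, and 6 and 5, and the shares over all genes at that fold were not counted. After TPM rescaling the all-gene median with GSK126 went from -0.04 to 0.16. Member medians were then 0.04, -0.20 and 0.02, and -0.10 for scramble shRNA against vehicle (main -0.30). Of 32 members 10 changed sign with GSK126, 0 with astemizole and 2 with knockdown, and the counts stayed within 1.5 times. A filter at 0.5 FPKM changed no count. No member past 2-fold reversed under any setting. Under 0.1 FPKM instead of at 0, silent members were 50.9% with vehicle (main 35.8%), 50.9% with each drug (main 34.0%), 51.9% with scramble shRNA (main 33.0%) and 53.8% with knockdown (main 32.1%); limits of 0.5 or 2 FPKM kept each detected share within 1.5 times. No paired analysis was possible because each condition has 1 value. Depth limits every statement on members below 1 FPKM, whose values can rest on a few reads.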
